A study of Mus musculus with 13 samples.

Results

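The 10 genes described here, of 19838 in each count table, encode 8 hormones that fat cells secrete and the pair of adiponectin receptors. They were chosen by symbol: Adipoq, Lep, Retn, Rarres2, Rbp4, Cfd, Nrg4 and Angptl8 for the hormones, Adipor1 and Adipor2 for the receptors. Adiponectin, leptin, resistin, chemerin, retinol-binding protein, adipsin, neuregulin 4 and an angiopoietin-like regulator of lipoprotein lipase are their products, in that order.

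Adipokines are proteins that adipocytes release into the circulation or into the tissue around them. Leptin reports the size of the fat store to the brain, adiponectin acts through receptors that raise AMP-activated kinase activity and ceramide breakdown in target cells, and adipsin activates the alternative complement pathway. The fat sheath of the aorta in rodents is rich in brown adipocytes, while skeletal muscle holds few adipocytes between its fibres and is a main target of adiponectin.

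Mice of the strain FVBxC57BL/6 gave aorta and gastrocnemius, a calf muscle, at 88 weeks of age. The dNdK mice carried 1 copy each of a GFP-FOXM1dNdK transgene, which encodes FOXM1, a transcription factor of dividing cells, in a modified form with a GFP tag, and of Rosa26-rtTA, a doxycycline-controlled activator made from the broadly active Rosa26 locus. The Rosa26 mice carried Rosa26-rtTA without the FOXM1 transgene, so the activator was shared by all groups. There were 2 aorta dNdK, 4 aorta Rosa26, 3 muscle dNdK and 4 muscle Rosa26 libraries. The labels used here give neither sex nor doxycycline treatment, and do not say that each library is a separate animal, so p-values measure the spread between libraries.

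RNA was amplified with a transcriptome-wide primer pool and read on an Ion Torrent instrument, which gave 3919526 to 13683952 gene counts per library. Levels are CPM, the counts of a gene scaled to the library total, and the floor of 3 counts was worth 0.219 to 0.765 CPM depending on the library. Each gene was read from its own amplicon, so levels were compared between libraries and not between genes. Foxm1 reached 0.233 to 0.467 CPM in aorta dNdK and 0.308 to 1.94 CPM in aorta Rosa26 libraries, and 3 counts at most in any muscle library. Whether its amplicon reads the transgene is not given in the sources used here.

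Several libraries stood apart. Muscle dNdK 3 held 445 CPM of Plin1, which coats lipid droplets, and 701 CPM of Ucp1, the uncoupling protein of brown fat, while the other 6 muscle libraries held 5.41 to 30.4 and 0.269 to 5.89 CPM, so it is shown apart below. Its fast fibre gene Myh4 was at 30856 CPM, within the 30012 to 42910 CPM of the other 6. The aorta libraries carried 619 to 1013 CPM of Plin1 and 5525 to 10147 CPM of Ucp1, and of the smooth muscle genes, Myh11 was at 71.9 to 103 CPM while Acta2 lay between 83.5 and 359 CPM. Tagln, another smooth muscle marker, had 2 counts at most in any library. Myh6 of heart muscle ranged from 0 to 911 CPM over the aorta libraries and was high in Rosa26 1, Rosa26 2 and dNdK 2. Aorta Rosa26 3 and 4 and muscle Rosa26 1, Rosa26 4 and dNdK 1 had more unmapped reads (5.81% to 7.45%) than the other libraries (4.62% to 5.62%). In bulk tissue, fewer adipocytes and less hormone RNA per adipocyte cannot be told apart.

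The sequences upstream of a RefSeq start of 5 of these genes are shown because the results turn on them: 3 hormone genes that were low in the muscle libraries other than dNdK 3, and the pair of receptors, which were split between the tissues. Each is the 250 bases before the RefSeq start on GRCm38.p6, with motif matches in capitals. The Adipoq window (chr16:23146286-23146535, plus strand), the Lep window (chr6:29059971-29060220, plus strand) and the Angptl8 window (chr9:21835260-21835509, plus strand) each hold a match to TTNNGNAA, the core shape read by C/EBP factors, 81, 55 and 100 bases before the start. The first Adipor1 window (chr1:134415128-134415377, plus strand) holds overlapping matches to the GC box GGGCGG, 37 and 32 bases before the start, and the Adipor2 window (chr6:119388735-119388984, minus strand) a TTNNGNAA match at 225 bases. The Adipor2 start lies inside the annotated gene, which spans 119353150 to 119417699 on chromosome 6, so its window is not the sequence before the gene. The other capitals in the Adipoq and Adipor1 windows are CCAAT boxes and in the Lep window a GC box.
Adipoq: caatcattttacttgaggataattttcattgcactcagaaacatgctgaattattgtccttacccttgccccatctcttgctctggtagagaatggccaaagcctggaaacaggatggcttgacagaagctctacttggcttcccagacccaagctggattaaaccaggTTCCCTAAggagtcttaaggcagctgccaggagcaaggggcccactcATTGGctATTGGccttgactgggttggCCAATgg
Lep: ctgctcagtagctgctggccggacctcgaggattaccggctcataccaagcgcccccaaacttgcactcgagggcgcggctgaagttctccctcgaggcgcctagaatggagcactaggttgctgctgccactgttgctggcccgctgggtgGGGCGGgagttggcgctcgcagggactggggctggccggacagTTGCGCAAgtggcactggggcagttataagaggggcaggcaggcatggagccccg
Angptl8: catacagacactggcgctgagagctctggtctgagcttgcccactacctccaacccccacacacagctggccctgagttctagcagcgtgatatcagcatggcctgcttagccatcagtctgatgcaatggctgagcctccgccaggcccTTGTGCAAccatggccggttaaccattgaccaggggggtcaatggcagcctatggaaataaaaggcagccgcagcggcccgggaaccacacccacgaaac
Adipor1: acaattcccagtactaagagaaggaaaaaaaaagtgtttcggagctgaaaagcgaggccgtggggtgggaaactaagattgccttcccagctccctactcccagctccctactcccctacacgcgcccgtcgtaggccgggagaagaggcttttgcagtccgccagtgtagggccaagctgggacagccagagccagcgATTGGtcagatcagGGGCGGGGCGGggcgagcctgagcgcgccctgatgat
Adipor2: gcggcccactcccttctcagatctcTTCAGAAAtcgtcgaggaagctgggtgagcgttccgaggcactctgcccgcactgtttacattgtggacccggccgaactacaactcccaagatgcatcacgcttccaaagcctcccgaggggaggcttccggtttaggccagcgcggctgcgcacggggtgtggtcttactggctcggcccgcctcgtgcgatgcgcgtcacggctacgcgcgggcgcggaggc
TTNNGNAA occurred, on either strand, in 36.8% of 32851 upstream windows of this length, GGGCGG in 32.7% and CCAAT in 33.8%. Windows were found for 9 of the 10 genes. Of the hormone windows not shown, those of Rbp4 and Nrg4 also held TTNNGNAA, while those of Retn and Cfd held no match to any motif searched. The matches are a description of these letters and not of binding.

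Of the fat hormones, adiponectin was the steadiest in aorta and far lower in muscle libraries other than dNdK 3. Adipoq stood at 162 and 173 CPM in aorta dNdK, against 164, 135, 202 and 172 CPM in aorta Rosa26 libraries. In muscle it stood at 0.736 and 6.39 CPM in dNdK 1 and 2 and at 129 CPM in dNdK 3, against 2.02, 6.89, 1.68 and 1.30 CPM in Rosa26. The highest of the 6 aorta libraries was 1.49 times the lowest, the narrowest spread of the 10 genes, and muscle dNdK 3 fell just short of that range.

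Leptin varied more. Lep, whose product signals the fat store, stood at 152 and 71.1 CPM in aorta dNdK, against 35.2, 42.2, 42.7 and 99.0 CPM in aorta Rosa26. In muscle it was at 0.442 and 15.1 CPM in dNdK 1 and 2 and at 209 CPM in dNdK 3, against 3.63, 7.14, 1.60 and 1.58 CPM in Rosa26. The genotypes overlapped in both tissues, and muscle dNdK 3 exceeded every aorta library.

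Adipsin and resistin spread the most over aorta. Cfd, the adipsin gene, stood at 839 and 184 CPM in aorta dNdK, against 536, 391, 3072 and 1001 CPM in aorta Rosa26. Muscle Cfd was at 77.4 and 127 CPM in dNdK 1 and 2 and at 3447 CPM in dNdK 3, against 90.4, 316, 81.5 and 51.5 CPM in Rosa26. The highest aorta library was thus 16.7 times the lowest, and the lowest aorta library lay below the highest Rosa26 muscle.
Retn, the resistin gene, stood at 102 and 33.7 CPM in aorta dNdK, against 86.5, 31.0, 242 and 95.9 CPM in aorta Rosa26. In muscle it was at 3.68 and 8.93 CPM in dNdK 1 and 2 and at 215 CPM in dNdK 3, against 9.41, 34.0, 8.46 and 3.73 CPM in Rosa26. Aorta Rosa26 3 was highest in aorta for Cfd and for Retn, and these genes had the most similar pattern of any 2 of the 10 over the 13 libraries, with a mean absolute difference of 0.42 in centred log2 CPM.

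Rbp4, a carrier of retinol, and Nrg4, a ligand of ErbB receptors known as a product of brown fat, were far lower in muscle libraries other than dNdK 3 than in aorta. Rbp4 stood at 1074 and 1226 CPM in aorta dNdK, against 1129, 877, 2405 and 1375 CPM in aorta Rosa26. Muscle Rbp4 was at 3.83 and 18.0 CPM in dNdK 1 and 2 and at 214 CPM in dNdK 3, against 6.32, 19.1, 5.26 and 4.01 CPM in Rosa26. Muscle dNdK 3 lay between all other muscle and all aorta libraries.
Nrg4 stood at 90.8 and 62.7 CPM in aorta dNdK, against 51.5, 53.1, 61.0 and 102 CPM in aorta Rosa26. In muscle it was at 0.883 and 1.60 CPM in dNdK 1 and 2 and at 68.3 CPM in dNdK 3, against 0.403, 1.36, 0.305 and 0.280 CPM in Rosa26. Its muscle values outside dNdK 3 were near the floor, and dNdK 3 was within the aorta range. Of 6075 exon bases of Nrg4, 368 are shared with the antisense gene Fbxo22, and counting did not use strand.

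Angptl8, whose product helps to restrain lipoprotein lipase, had the largest ratio between the tissues. It stood at 113 and 162 CPM in aorta dNdK, against 45.8, 82.4, 87.6 and 101 CPM in aorta Rosa26. In muscle, dNdK 1, 2 and 3 had 1, 17 and 544 counts, and Rosa26 1 to 4 had 0, 0, 3 and 0 counts. Both aorta dNdK libraries exceeded all 4 Rosa26 ones, and muscle dNdK 3, at 39.8 CPM, lay just below the lowest aorta library.
Rarres2, whose product chemerin attracts immune cells, had the smallest estimate between the tissues among the hormones. It stood at 84.4 and 78.0 CPM in aorta dNdK, against 135, 153, 189 and 57.7 CPM in aorta Rosa26. Muscle Rarres2 was at 20.0 and 21.7 CPM in dNdK 1 and 2 and at 177 CPM in dNdK 3, against 16.1, 28.9, 18.7 and 11.7 CPM in Rosa26. Rarres2 shares 892 of 2656 exon bases with the antisense gene Lrrc61, which had 65 counts in all.

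The receptors were split between the tissues. Adipor1, known as the main adiponectin receptor of skeletal muscle, stood at 156 and 191 CPM in aorta dNdK, against 180, 248, 145 and 247 CPM in aorta Rosa26. Muscle Adipor1 was at 159 and 279 CPM in dNdK 1 and 2 and at 255 CPM in dNdK 3, against 394, 244, 301 and 363 CPM in Rosa26. It was the only gene of the 10 whose level in muscle dNdK 3 lay within the range of dNdK 1 and 2.
Adipor2, known as the main adiponectin receptor of liver, stood at 602 and 731 CPM in aorta dNdK, against 561, 674, 378 and 609 CPM in aorta Rosa26. Muscle Adipor2 was at 72.6 and 136 CPM in dNdK 1 and 2 and at 304 CPM in dNdK 3, against 95.5, 111, 129 and 90.5 CPM in Rosa26. All 6 aorta libraries exceeded all 7 muscle libraries.

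**Figure D1:**
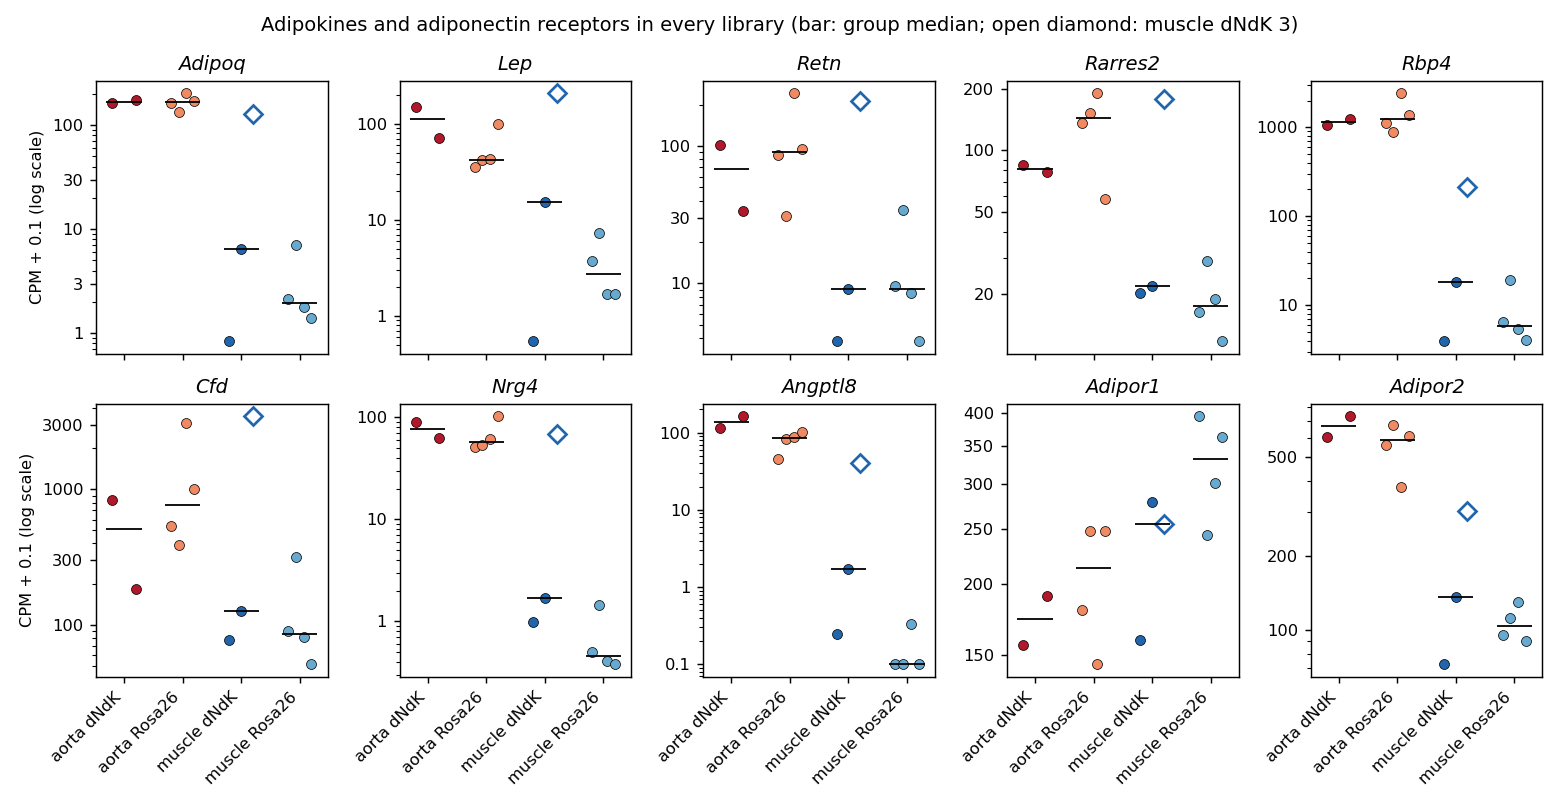
CPM plus 0.1 on a log scale of each of the 10 genes in every library, by tissue and genotype; points are libraries, the bar is the group median over all its libraries, and the open diamond is muscle dNdK 3. The 8 hormone genes in muscle dNdK 3 sit far above the other muscle libraries, as at 129 CPM of Adipoq, while Adipor1 at 255 CPM does not.

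Set against muscle Rosa26, aorta Rosa26 libraries had higher levels of all 8 hormone genes and of Adipor2, and lower levels of Adipor1. All 10 passed the test (edgeR's quasi-likelihood test with Benjamini-Hochberg adjustment over 11058 genes, threshold 0.05), beside 58.4% of all genes tested. Of the 10, 9 were higher in aorta, where 31% of all genes were, and 1 was lower, where 27.5% were. After TMM scaling the groups did not overlap for 8 genes, beside 52.8% of all genes, and the median log2 fold change of the 10 was 2.75, against 0.08 over all genes. Angptl8, with 3 counts over the muscle Rosa26 libraries, and Nrg4, with 16 at most in any of them, passed the filter through aorta. That largely set the direction of these genes, so their calls and lack of overlap carry little weight in these counts. The 10 were not tested as a group.

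Next to Angptl8, the largest fitted differences were those of Rbp4, at a log2 fold change of 6.52 (SE 0.60, adjusted p = 8.76e-06), Nrg4, at 5.95 (SE 0.53, adjusted p = 6.47e-06), and Adipoq, at 4.95 (SE 0.49, adjusted p = 1.44e-05), all by edgeR. TMM-scaled Adipoq averaged 125 ± 23.9 CPM in aorta and 3.98 ± 3.4 CPM in muscle (SD, n = 4 each). Angptl8 had 2731 counts over the aorta Rosa26 and 3 over the muscle Rosa26 libraries, a ratio of pooled CPM of 1091 (95% counting interval 373 to 5291), with an adjusted p = 1.25e-06. Its fitted log2 fold change depends on the prior count and is not a bound.

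Lep was higher in aorta by 3.15 on the log2 scale (SE 0.56, adjusted p = 0.0008) and Rarres2 by 1.93 (SE 0.34, adjusted p = 0.000754). Retn and Cfd, at 2.18 (adjusted p = 0.0217) and 2.35 (adjusted p = 0.0173), overlapped between the tissues. Their calls were lost without aorta Rosa26 3 (adjusted p = 0.0726 for Retn and 0.0607 for Cfd), without muscle Rosa26 1 (0.0601 and 0.0506) and without muscle Rosa26 3 (0.0614 and 0.0507). The Retn call was also lost without muscle Rosa26 4 (adjusted p = 0.0508).

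Adipor2 was higher in aorta by 1.52 on the log2 scale (SE 0.23, adjusted p = 0.000296), and Adipor1 lower, at -1.53 (SE 0.27, adjusted p = 0.000683). TMM-scaled Adipor1 averaged 153 ± 45.9 CPM in aorta and 443 ± 101 CPM in muscle (SD, n = 4 each). With library totals alone the median of all genes shifted to 0.96 and the whole table split into 6254 higher and 1298 lower calls, against 3424 and 3038 with TMM. Adipor1 was then at -0.66 (adjusted p = 0.0272), and its plain CPM overlapped, since aorta Rosa26 2 and 4 lay just above muscle Rosa26 2. The ratio of Adipor1 to Adipor2 reads, which no scaling moves, was 0.321 to 0.407 in aorta Rosa26 and 2.19 to 4.13 in muscle Rosa26 libraries.

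**Figure D2:**
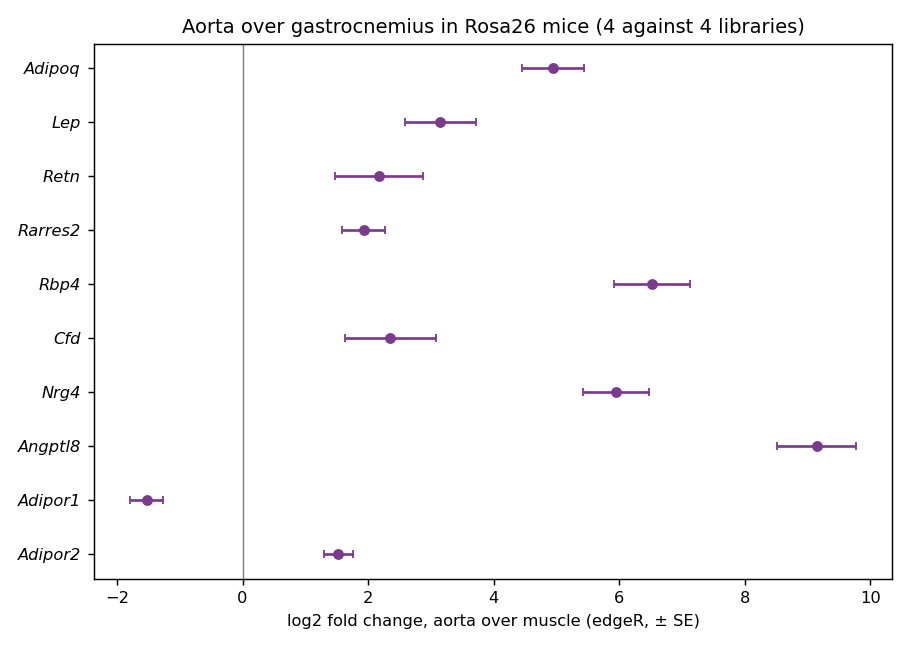
Log2 fold change of each gene, aorta over muscle in Rosa26 mice, with its SE from edgeR (4 against 4 libraries). The 9 genes from Adipoq at 4.95 to Adipor2 at 1.52 lie right of 0, and Adipor1 at -1.53 lies left of it; the point of Angptl8, at 9.14, depends on the prior count.

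Between genotypes in aorta, no hormone or receptor passed the test. Of 10 genes tested 0 were called, beside 0.00839% of all 11920 genes (edgeR, adjusted p from 0.757 to 0.931), and 1 had an unadjusted p under 0.05, beside 5.98% of all genes. Their median log2 fold change was 0.00, against -0.05 over all genes, with 5 estimates on each side of 0.

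The gene with the smallest p was Angptl8, at a log2 fold change of 0.91 (SE 0.35, unadjusted p = 0.0306, adjusted p = 0.757). TMM-scaled Angptl8 averaged 146 ± 36.1 CPM in dNdK (SD, n = 2) and 78.0 ± 27.8 CPM in Rosa26 aorta (SD, n = 4). It was the only one of the 10 whose genotypes did not overlap, beside 17.3% of all genes, or 9.14% counting those higher in dNdK. Without the 3 aorta libraries that held heart-muscle RNA its log2 fold change was 0.34, with dNdK 1 alone set against Rosa26 3 and 4. Of 17 alternatives, 1 called Angptl8 higher in dNdK, the fit with the title numbers as a block (adjusted p = 0.0292, edgeR). In that fit Rosa26 3 and 4 had no dNdK partner, and few residual degrees of freedom were left. Its estimate rests on dNdK 1 and 2, each set against the Rosa26 library of the same number. These pairs correlated at -0.35 and 0.19.

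Lep followed at 1.12 (SE 0.52), with TMM-scaled means of 119 ± 61.3 CPM in dNdK (n = 2) and 55.2 ± 35.9 CPM in Rosa26 (SD, n = 4). Cfd, at -1.14 (SE 0.90), Retn, at -0.61 (SE 0.74), and Rarres2, at -0.56 (SE 0.37), had lower estimates in dNdK. Without aorta Rosa26 3 and 4, the Cfd and Retn estimates were both above 0, at 0.32 and 0.38. These 2 libraries had many unmapped reads and also little Myh6, at 2.13 and 0 CPM, against 911 and 394 CPM in Rosa26 1 and 2. Those traits cannot be told apart here. Adipor2, at 0.38 (SE 0.29), Nrg4, at 0.30 (SE 0.38), Rbp4, at -0.20 (SE 0.39), Adipor1, at -0.13 (SE 0.31), and Adipoq, at 0.12 (SE 0.24), had the smallest estimates.

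In gastrocnemius, 8 of the 9 genes tested had higher estimates in dNdK over all 7 libraries, and none passed the test, beside 0% of all 10491 genes (edgeR, adjusted p from 0.656 to 0.770). Angptl8 was too low in muscle to be tested. At an unadjusted p under 0.05 there were 7 of the 9, beside 7.55% of all genes, and the median log2 fold change was 2.92, against 0.03 over all genes. No gene of the 9 had groups that did not overlap, beside 5.94% of all genes. The 8 higher estimates were largest for Nrg4, at 5.04 (SE 1.36), Lep, at 4.17 (SE 1.31), and Adipoq, at 3.67 (SE 1.26). TMM-scaled Nrg4 averaged 20.4 ± 33.2 CPM in dNdK (SD, n = 3) and 0.607 ± 0.530 CPM in Rosa26 muscle (SD, n = 4), so the SD in dNdK exceeded the mean.

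These values rested on dNdK 3. Without it, 0 of 9 genes were called, beside 0% of all genes, and 0 had an unadjusted p under 0.05, beside 4.14% of all genes. Adipoq was then at a log2 fold change of 0.21 (SE 0.85), Lep at 1.09 (SE 0.96), Nrg4 at 1.01 (SE 0.80) and Rbp4 at 0.27 (SE 0.70). Rarres2 was at 0.10 (SE 0.34), while Cfd, at -0.45 (SE 0.65), Retn, at -1.18 (SE 0.80), and Adipor2, at -0.09 (SE 0.27), turned to the other side of 0. The adjusted p over these 9 ranged from 0.973 to 0.996 by edgeR.

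Adipor1 was the exception. Its log2 fold change in muscle was -0.63 with dNdK 3 (SE 0.25, unadjusted p = 0.034, adjusted p = 0.656) and -0.64 without it (SE 0.30, unadjusted p = 0.0604, adjusted p = 0.973, edgeR). TMM-scaled Adipor1 averaged 219 ± 50.9 CPM in dNdK (n = 3) and 339 ± 76.4 CPM in Rosa26 (SD, n = 4), and the genotypes overlapped. Without the muscle libraries with many unmapped reads the value was -0.19.

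**Figure D3:**
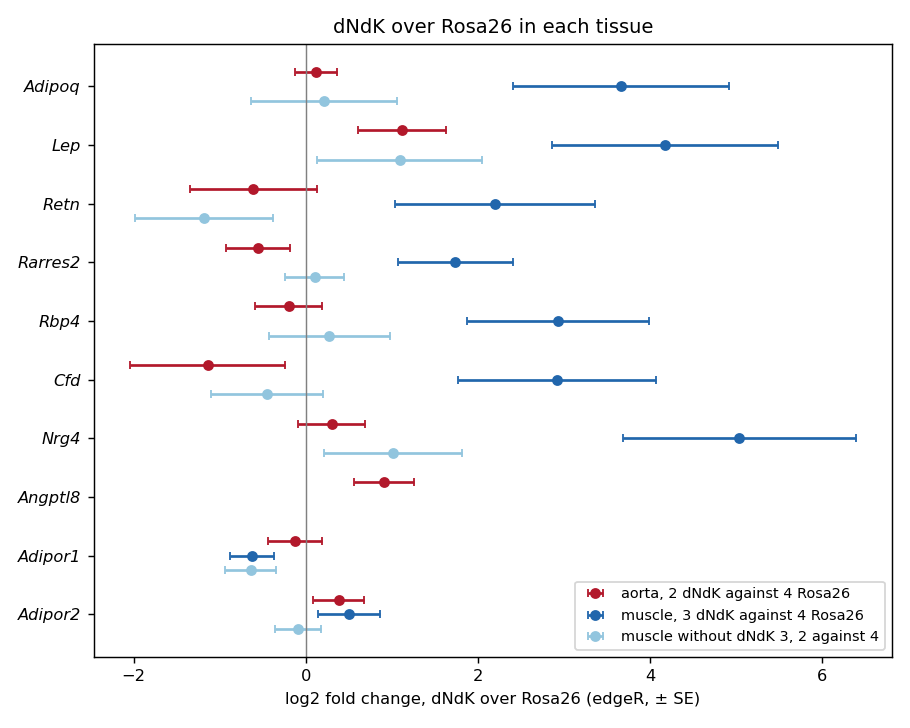
Log2 fold change of each gene, dNdK over Rosa26, with its SE from edgeR, in aorta, in muscle with all libraries, and in muscle without dNdK 3; Angptl8 was not tested in muscle. The muscle value of Nrg4 is 5.04 with dNdK 3 and 1.01 without it, while that of Adipor1 is -0.63 and -0.64.

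The fold changes of the genotypes did not pass a test of their difference between the tissues either, with 0 of 10 genes called, beside 0% of all 12318 genes (edgeR interaction test, adjusted p from 0.583 to 0.974). Angptl8 had the smallest p, at 6.32 for the muscle minus the aorta effect (SE 1.99, unadjusted p = 0.0073, adjusted p = 0.583), and without muscle dNdK 3 it was at 2.65 (adjusted p = 0.685). These fitted values for Angptl8 depend on the prior count, as muscle Rosa26 held 3 counts.
The test took the 13 libraries as independent, although the deposited names give 4 numbers that occur once in each tissue, 1 of them shared by aorta dNdK 1 and muscle dNdK 3. In a fit of these 8 libraries with the number as a block, added after seeing the data, the 8 hormone genes were called higher, beside 1.92% of all genes, with Adipoq at 6.03 (adjusted p = 0.00191, edgeR), and neither receptor was called. That fit holds 1 dNdK library in each tissue, of which the muscle one is dNdK 3, and leaves 2 residual degrees of freedom. The labels do not say that the number is an animal. It cannot tell the genotype from that library.

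For most of the hormone genes, the RNA in muscle dNdK 3 was not in the proportions of the aorta libraries. Set against the highest of the other 6 muscle libraries, this library held 42.8 times as much Nrg4, 24.9 times as much Angptl8, 18.7 times as much Adipoq and 13.8 times as much Lep. Rbp4 was at 11.2, Cfd at 10.9, Retn at 6.31 and Rarres2 at 6.12 times, Adipor2 at 2.24 times and Adipor1 at 0.65 times. As a share of the median of the 6 aorta libraries, Cfd reached 501%, Lep 367%, Retn 235% and Rarres2 161%. Nrg4 was at 110%, Adipoq at 76.7%, Angptl8 at 42.1% and Rbp4 at 18.2%.

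Dividing by Adipoq reads sets each gene against a hormone gene of fat, and no scaling moves such ratios. Any reads from cells other than adipocytes enter them too, so they do not measure the make-up of fat alone. The part of such cells was not tested. In muscle dNdK 1 and 2 the ratios rest on 5 and 68 Adipoq reads and in muscle Rosa26 on 14 to 81, against 673 to 1992 in aorta. Cfd gave 105 and 19.9 reads per Adipoq read in muscle dNdK 1 and 2 and 26.8 in dNdK 3, against 39.4 to 48.6 in muscle Rosa26 and 1.07 to 15.2 in aorta. Lep gave 0.6 and 2.37 in dNdK 1 and 2 and 1.62 in dNdK 3, against 0.955 to 1.80 in muscle Rosa26 and 0.212 to 0.940 in aorta. Retn gave 5 and 1.40 in dNdK 1 and 2 and 1.67 in dNdK 3, against 2.86 to 5.05 in muscle Rosa26 and 0.195 to 1.20 in aorta. For these 3 genes muscle dNdK 3 lay above every aorta library and within the range of the other 6 muscle libraries. For Cfd and Retn muscle dNdK 3 lay below every muscle Rosa26 library, and only dNdK 2 was lower.
Rbp4 gave 5.2 and 2.82 reads per Adipoq read in dNdK 1 and 2 and 1.67 in dNdK 3, against 2.78 to 3.14 in muscle Rosa26 and 6.50 to 11.9 in aorta, so muscle dNdK 3 lay below all other libraries. Ucp1 gave 8 and 0.132 in dNdK 1 and 2 and 5.45 in dNdK 3, against 0.0494 to 0.364 in muscle Rosa26 and 33.2 to 50.3 in aorta. Plin1, of the lipid droplet, gave 7.6 and 3.38 in dNdK 1 and 2 and 3.46 in dNdK 3, against 3.73 to 4.93 in muscle Rosa26 and 3.78 to 5.90 in aorta. For Ucp1 and Plin1 muscle dNdK 3 lay below every aorta library. Its Ucp1 ratio exceeded those of all other muscle libraries except dNdK 1, whose ratio rests on 5 Adipoq reads. Its Plin1 ratio lay below every muscle Rosa26 library, and only dNdK 2 was lower. Nrg4 gave 0.531 and Angptl8 0.309 in dNdK 3, both within their aorta ranges of 0.303 to 0.594 and 0.280 to 0.938. The other muscle libraries gave 0.182 to 1.2 for Nrg4 and 0 to 0.25 for Angptl8. Rarres2 gave 1.38 in dNdK 3, above the 0.336 to 1.13 of aorta and below the 3.40 to 27.2 of the other muscle libraries. These ratios were not tested, since muscle dNdK 3 is 1 library.

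**Figure D4:**
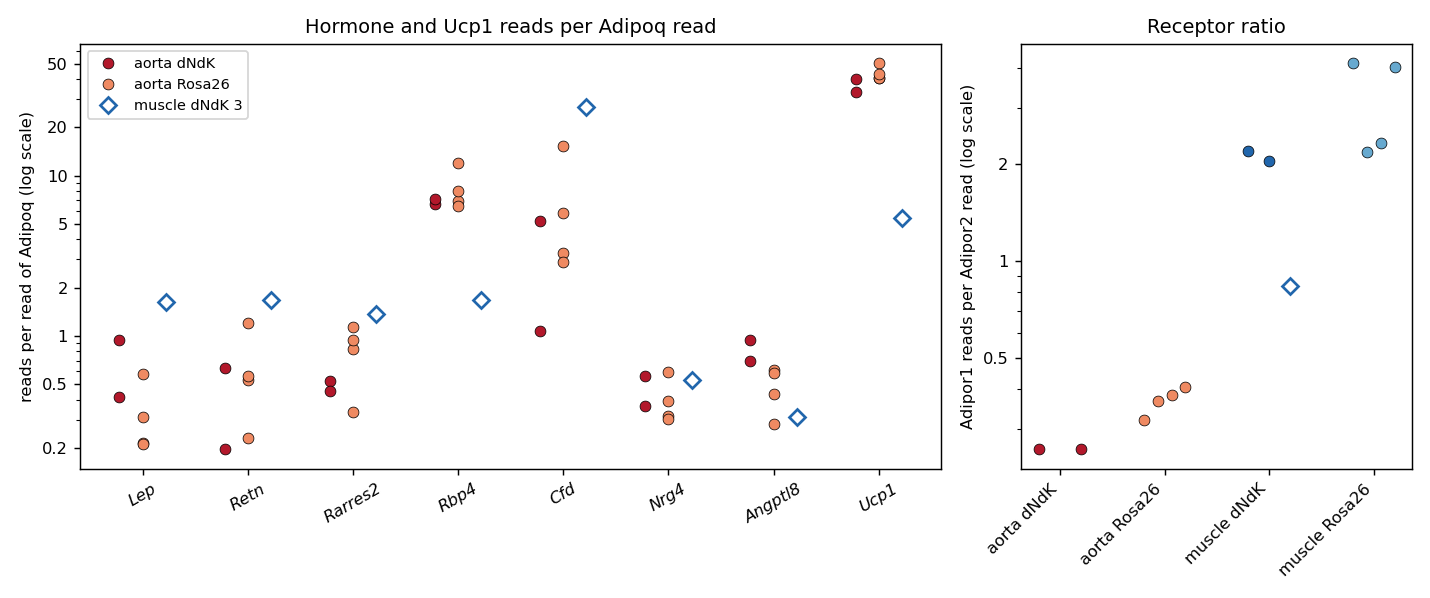
Left, reads of each hormone gene and of Ucp1 per read of Adipoq (log scale) in aorta dNdK, aorta Rosa26 and muscle dNdK 3; right, reads of Adipor1 per read of Adipor2 (log scale) in every library. Muscle dNdK 3 lies above the aorta libraries for Cfd at 26.8 and below them for Ucp1 at 5.45, and its receptor ratio of 0.839 lies between the tissues.

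The receptor ratio did not overlap between genotypes in aorta. Adipor1 gave 0.260 and 0.261 reads per Adipor2 read in aorta dNdK, against 0.321 to 0.407 in the 4 aorta Rosa26 libraries. With 2 libraries against 4, 17.3% of all single genes also had genotypes that did not overlap in aorta. The ratio was not tested and was picked after its values were seen. In muscle it was 2.197 and 2.05 in dNdK 1 and 2 and 0.839 in dNdK 3, against 2.19 to 4.13 in Rosa26. In the libraries with many unmapped reads, 5.27% to 19.7% of Adipor2 reads lay on the first strand, against 31.7% to 37.9% in the others, and that strand alone gave a log2 fold change between the tissues of 1.38 with an adjusted p = 0.137 (edgeR).

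The patterns nearest to each gene, over 13 libraries and 12317 genes, show which RNA travelled with it. Adipoq was nearest to Plin1, with a mean absolute difference of 0.22 in centred log2 CPM, then Cidec (0.28) and Dgat2 (0.30), all genes of lipid droplets and triglyceride storage, and Lrg1 (0.37) and Mogat1 (0.39). Lep had no gene so close: Npr3, a clearance receptor for natriuretic peptides, was at 0.65, Mc2r, the corticotropin receptor, at 0.66, and Slc16a7, Aoc3 and Cyp4v3 at 0.73 to 0.78. Adipor2 was nearest to Pex3 (0.17), a peroxisome gene, and to Scarb1 (0.18), the lipoprotein receptor, then Arpc1a (0.18), Eif4ebp1 (0.20) and Pdzd2 (0.20).

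The partners of these hormones were counted by lists, and no gene of any list passed the test between genotypes in either tissue. Among 17 genes of adiponectin signalling tested between the tissues, 5 were higher and 6 lower in aorta Rosa26, beside 31% higher and 27.5% lower of all genes (median log2 fold change -0.37, against 0.08 over all genes). The lower ones with the smallest p were subunits of AMP-activated kinase: Prkaa2 at -3.91, Prkab2 at -6.14 and Prkag3 at -8.92. Other subunits of this kinase went the other way: Prkag2 at 2.17 and Prkab1 at 1.97 were called higher in aorta. Prkaa1, at 0.37, was not called. Acer2, a ceramidase, was higher at 3.90. Cdh13, the T-cadherin that binds adiponectin, was lower in aorta at -1.65 (adjusted p = 0.0108, edgeR). Of 5 genes that fold and assemble adiponectin in the endoplasmic reticulum, 2 were higher, Pdia3 at 1.43 and Ero1l at 1.01, and 0 lower, beside the same 31% and 27.5% of all genes (list median 0.22).

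Of 9 other members of the receptors' PAQR family, 5 passed the filter between the tissues. Of these 5, 4 were called higher in aorta and 1 lower, beside 31% and 27.5% of all genes (list median 2.15). The higher ones were Paqr9 at 4.86, Mmd2 at 6.32, Paqr6 at 2.15 and Paqr4 at 1.63. Mmd2 and Paqr6 did not pass the filter over the muscle libraries alone. They entered through aorta, which largely set their direction. The C1q/TNF proteins, relatives of adiponectin, had 2 of 6 higher, C1qtnf12 at 3.71 and C1qtnf7 at 1.73, and 0 lower, beside 31% and 27.5% of all genes (list median 0.68). Of the resistin family 1 gene was tested, Retnla, at 0.04 and not called.

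Of 14 receptors and partners of the other hormones, 7 were higher in aorta and 1 lower, beside 31% and 27.5% of all genes (list median 1.38). Complement C3, the central protein of the pathway that adipsin activates, was higher at 3.65, lipoprotein lipase Lpl at 2.38, its endothelial anchor Gpihbp1 at 2.28, and Cap1, described as a resistin receptor in human cells, at 1.40. Cfb, the gene of factor B, which adipsin cleaves, had 0 counts in every library and was 1 of 2785 genes without a count. Whether its amplicon reads the gene is not known, so this does not show that the RNA was absent. Erbb4, a receptor of neuregulin 4, stood at 7.34 and 11.4 CPM in aorta dNdK, against 3.90 to 4.27 CPM in aorta Rosa26 libraries. Its genotypes did not overlap, beside 17.3% of all genes, or 9.14% counting those higher in dNdK. Its log2 fold change of 1.33 (SE 0.35, unadjusted p = 0.00523) had an adjusted p = 0.757 by edgeR.
In the leptin pathway 1 of 7 genes was higher in aorta, Stat5a at 1.05, and 3 lower, the insulin and leptin adaptors Irs1 at -2.43 and Irs2 at -1.86 and the kinase Jak2 at -0.62, beside 31% and 27.5% of all genes (list median -0.49). The receptor Lepr did not differ past the threshold, at -0.50 (SE 0.60, adjusted p = 0.498).

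Of 10 regulators of adipokine genes, 7 were higher in aorta and 1 lower, beside 31% and 27.5% of all genes (list median 1.69). Thrsp, a lipogenesis gene, was higher at 7.33, the adipocyte factors Pparg at 4.74 and Cebpa at 4.49, and Mlxipl, the carbohydrate-response factor, at 2.00. In muscle dNdK 3, Pparg reached 120 CPM and Cebpa 327 CPM, while the other 6 muscle libraries held 2.15 to 9.78 and 7.21 to 28.7 CPM. Of 16 other secreted factors of fat, 7 were higher, with Hp at 6.02, Pm20d1 at 5.14 and Orm1 at 5.13, and 1 lower, Agt at -3.67, beside 31% and 27.5% of all genes (list median 0.77). Pm20d1, with 10 counts at most in any muscle Rosa26 library, passed the filter through aorta, which largely set its direction.

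Other cell types known to make some of these proteins were looked at with marker lists. The 16 white fat markers summed to 71548 and 76980 CPM in aorta dNdK and 42613 to 80787 CPM in aorta Rosa26, and to 30620 CPM in muscle dNdK 3 with all 16 above the floor. The other muscle libraries, with 15 or 16 above the floor, reached 2895 and 3908 CPM in dNdK 1 and 2 and 2267 to 5679 CPM in Rosa26. Not all of these markers separated the tissues. Between Rosa26 tissues, 13 were called higher in aorta and 1 lower, Slc2a4 at -1.19, beside 31% and 27.5% of all genes. Car3, at -0.05, and Plin4, at 0.02, were not called. Car3 gave 305 to 2420 reads per Adipoq read in these muscle libraries, against 19.3 to 33.9 in aorta. The muscle sums thus do not measure fat alone. The 10 markers of liver, a main source of Rbp4 and Angptl8, summed to 159 and 47.3 CPM in aorta dNdK and 47.7 to 446 CPM in aorta Rosa26. They reached 12.4, 22.9 and 259 CPM in muscle dNdK 1, 2 and 3 and 4.88 to 20.5 CPM in muscle Rosa26, with 3 to 7 of the 10 at 0 counts in each library. Most of each sum was Cyp2e1, at 43.1 to 442 CPM in aorta, 255 CPM in muscle dNdK 3 and 4.11 to 22.3 CPM in the other muscle libraries. Alb was at 3.29 CPM at most and Ttr at 0.233 CPM at most in any library. Their part in the levels of Rbp4 and Angptl8 was not tested.
The 9 macrophage markers summed to 282 and 363 CPM in aorta dNdK and 347 to 791 CPM in aorta Rosa26, and to 194 CPM in muscle dNdK 3. They reached 101 and 209.5 CPM in muscle dNdK 1 and 2 and 66.97 to 157 CPM in muscle Rosa26. Their part in the levels of Retn, Cfd and Rarres2 was not tested.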

How the data were processed

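Each deposited table holds raw counts of reads per gene for 1 library, on either strand and on each strand alone. Per the submitters' processing notes, the tools were STAR 2.5.2b, limma 3.42.2 and edgeR 3.28.1, with genome build mm10 (GRCm38.p6); the tables have the layout of STAR's gene counts. Reads on either strand were used here, and each sample's group came from its title and genotype label. The library carries no molecular identifiers, so intervals and floors cover counting error only. Lines for unmapped, multimapping, featureless and ambiguous reads stayed out of library sizes; genes took 86.66% to 91.42% of each table.

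Genes were filtered with filterByExpr (minimum count 10, minimum total 15), scaled by TMM and tested with the quasi-likelihood test of edgeR 4.0.16 in R 4.3.3. Between the tissues, a gene near the floor in muscle could pass the filter through its aorta libraries alone, or the reverse. The filter then largely set the direction of its difference. The comparisons were dNdK against Rosa26 in each tissue alone, aorta against muscle in Rosa26, and the difference of the genotype effects over all 13 libraries. P-values were adjusted over all genes by Benjamini-Hochberg, with a threshold of 0.05. SE is the size of the log2 fold change divided by the root of its F statistic. Group means are TMM-scaled CPM, and values of single libraries and ranges are plain CPM. DESeq2 1.42.0, other scalings, filters, single strands, left-out libraries and blocks were alternatives. The scripts were tested on simulated data.

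The genes, the lists and the motifs were chosen with earlier results of these data known. All 10 genes are named. Of each list, at most 4 genes with the smallest p in a comparison are named. Beyond that, Cdh13, Cfb, Lepr, Prkag2, Prkab1, Prkaa1 and genes given as markers were picked after their values were seen. Pattern likeness used log2 CPM with a prior count of 2.

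The numbers in the titles did not pair the libraries steadily. Same-numbered libraries correlated at -0.35 and 0.19 in aorta, and at 0.21, -0.0432 and -0.00775 in muscle. Between the tissues, those of Rosa26 1, 2, 3 and 4 correlated at -0.29, 0.30, -0.29 and 0.24. Correlations of this size do not settle which libraries form a pair. The deposited names carry another number, shared by 3 aorta and 3 muscle Rosa26 libraries, whose deviations correlated at 0.26, 0.28 and 0.24. Aorta dNdK 1 and muscle dNdK 3 also share 1 (correlation 0.14). These were taken as pairs in alternatives for the tissues and, added after seeing the data, for the difference of effects; the main tests took libraries as independent. Upstream windows came from RefSeq (GRCm38.p6) by symbol, and a window for Rarres2 was not used here.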

Additional observations from a re-analysis of the deposited data

Results flagged for a closer look

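In groups of 4 libraries, a library was picked out where its gap to the nearest other took over 0.829 of the group's range. With 20 groups tested, chance flags about 1 in 20. In muscle Rosa26 2, 4 hormone genes stood above the other Rosa26 muscles: Adipoq at 6.89 CPM, Rbp4 at 19.1 CPM, Cfd at 316 CPM and Nrg4 at 1.36 CPM. Plin1 was also highest there, at 30.4 CPM, while the other 3 held 5.41 to 9.95 CPM; its part in these levels was not tested. In aorta Rosa26 4, Lep stood at 99.0 CPM, above the 35.2 to 42.7 CPM of the others. This is the library with the lowest depth and 1 of those with many unmapped reads. Angptl8 in muscle Rosa26 3, at 0.229 CPM, is 3 counts beside 0 in the other 3 libraries and lies at the floor.

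Rarres2 had its means on opposite sides in the tissues: dNdK was higher in muscle and lower in aorta, and the log2 difference of means was 1.57 for the muscle minus the aorta effect. That sign pattern was not tested as such. The edgeR interaction test gave 2.26 (SE 0.93, adjusted p = 0.583), and dNdK 1 and 2 alone were at 20.0 and 21.7 CPM in muscle, within the 11.7 to 28.9 CPM of Rosa26.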

How the results depend on the processing

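The 10 hormone and receptor genes kept direction and side of the threshold in 152 of 170 alternatives in aorta, 150 of 164 in muscle, 170 of 180 between the tissues and 222 of 238 for the difference of effects. The fit without muscle dNdK 3 entered the muscle and difference totals both as a left-out library and as the library with fat genes. Where the main fit called none of the genes, these counts mostly show that signs held, whatever the size of the estimates. The cause of each change was not tested. In aorta, genes called over the whole table numbered 13 with DESeq2, 0 on the first and 0 on the second strand alone, 30 without the heart-muscle libraries, 0 with all 13 libraries in 1 fit, and 0 to 1 with single libraries left out. They numbered 163 with the replicate block of title numbers, which called 1 of the 10, Angptl8, at 1.32 (adjusted p = 0.0292). Alternatives chosen after seeing the data gave 278 with the unmapped share as a covariate and 179 without aorta Rosa26 3 and 4.

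Signs turned in aorta for Adipoq at -0.0058 with library totals, -0.0377 on the first strand and -0.11 without heart-muscle libraries, for Adipor1 at 0.12 on the second strand, for Rbp4 at 0.65 on the first strand, 0.39 with the block, 0.77 with the covariate and 0.38 without Rosa26 3 and 4, for Retn at 0.36, 1.17 and 0.38 in the last 3 of these, and for Cfd at 1.19 and 0.32 in the last 2. Leaving out single libraries, Adipor1 ranged from -0.27 to 0.0534, Rbp4 from -0.38 to 0.12 and Retn from -1.61 to 0.0096.

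In muscle, 7 genes were called with DESeq2 and 0 to 3 with single libraries left out. Retn was at -0.0474 with the block and -1.18 without dNdK 3, Cfd at -0.45 and Adipor2 at -0.0913. With the block and without dNdK 3, Adipoq was at -0.70, Lep -0.46, Retn -1.73, Rarres2 -0.13, Rbp4 -0.44, Cfd -0.84 and Adipor2 -0.12. Single libraries left out gave -1.18 to 3.13 for Retn, -0.45 to 3.76 for Cfd and -0.0913 to 0.82 for Adipor2.

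The difference of effects had 6 genes with DESeq2; Adipor2 was at -0.41 on the first strand, -0.0887 with the block and -0.50 without dNdK 3, where Retn was at -0.57, and they ranged from -0.50 to 0.42 and -0.57 to 3.77. With the block of deposited-name numbers, 8 of the 10 were called and 247 genes over the whole table, resting on 1 dNdK animal. Between the tissues, 8 to 10 of the 10 were called with single libraries left out; with the covariate Retn and Cfd lost the call (adjusted p = 0.111 and 0.147). With that block all 10 were called, and no block changed another call. With 2 dNdK aortas, and fat markers in 1 of 3 dNdK muscles, the lack of calls in the main tests does not show that genotype effects were absent.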
